A study of Mus musculus with 9 samples.

Results

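Chemokine receptors are the surface receptors that let a leukocyte sense and follow chemokines. Levels of 7 of their genes, Cx3cr1, Ccr1, Ccr2, Ccr7, Ccrl2, Cxcr2 and Cxcr4, were read from single-cell RNA counts of CD11b+ cells of the mouse brain. These genes were taken by symbol from the 31053 genes of the count tables. All 7 were counted in every library. The counts came from C57BL/6 female mice 5 months of age. Ctrl mice (3 libraries, 1 brain each) were untreated. D0 mice (3 libraries, 2 pooled brains each) had eaten a diet with 1200 mg/kg PLX5622, an inhibitor of the receptor Csf1r that microglia need to survive, for 14 days. D2 mice (3 libraries, 2 pooled brains each) had the same 14 days of PLX5622 and then 2 days of control diet. Brains were perfused, freed of the cerebellum and sorted for live CD11b+ cells, a gate that holds microglia together with border macrophages, monocytes, neutrophils and some dendritic and lymphoid cells.

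Chemokine receptors pass through the membrane as G protein-coupled receptors, mostly signal through inhibitory G proteins, and direct migration, adhesion and retention of leukocytes. In the brain, Cx3cr1 is the receptor for the neuronal ligand fractalkine and is a standard label of microglia. Ccr2, the receptor for Ccl2, is the standard label of classical monocytes that leave the marrow for the blood and tissues, which is why cells that hold both transcripts are of interest when microglia are depleted and return.

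The study left out library D2-3, and it was left out here of all values unless named. In the other 8 libraries 28655 cells passed the limits on UMIs (unique molecular identifiers, each standing for 1 captured RNA molecule), genes and mitochondrial RNA, with a median of 4810 to 9243 UMIs per cell and 20257894 to 61230741 UMIs per library. Of 30463 kept cells in all 9 libraries, 196 (0.643%) had a barcode also found in another library, with 0 to 7 such barcodes per pair of libraries. Cells were clustered without the 7 receptor genes, and the clusters were named from marker genes. There were 22989 microglia-like, 183 border macrophage-like, 443 monocyte-like, 385 dendritic cell-like, 1055 neutrophil-like and 117 lymphoid-like cells, with 907 endothelial-like cells that served as a background class. The markers went against the name of the 27 border macrophage-like cells of D0-2. These cells held the 10 border macrophage markers at only 46.0 CPM in sum (CPM, UMIs of a gene per 1000000 UMIs of the cells). They held the 10 neutrophil markers at 393640 CPM, beside 397930 CPM in the neutrophil-like cells of D0-2. The 25 border macrophage-like cells of D2-3 held 162 CPM of the former and 53605 CPM of the latter. The class is thus described from Ctrl-1 and Ctrl-3, though the 27 cells stay among the 183. Neutrophil markers also summed to 3046 CPM in the dendritic cell-like cells of D0-2, beside 2535 CPM of dendritic cell markers. In monocyte-like cells they summed to 4842 CPM in D0-2 and 2628 CPM in D2-2, beside 10273 and 10622 CPM of monocyte markers. In the other libraries with enough cells they summed to 73.0 to 235 CPM in dendritic cell-like and 97.1 to 313 CPM in monocyte-like cells. D2-3 stood apart, with 490 monocyte-like cells and only 777 microglia-like cells among 1808.

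The 7 genes lie on 3 chromosomes of the GRCm38 build. Cx3cr1 (chr9:119901616-120069879, minus strand), Ccr1 (chr9:123962124-123968692, minus strand), Ccr2 (chr9:124101950-124113557, plus strand) and Ccrl2 (chr9:111054486-111057519, minus strand) lie on chromosome 9. Cxcr2 (chr1:74153989-74161246, plus strand) and Cxcr4 (chr1:128588199-128592293, minus strand) lie on chromosome 1, and Ccr7 (chr11:99144196-99155077, minus strand) on chromosome 11. The annotated span of Cx3cr1 overlaps 9 other genes, 3 of them on the same strand (Gorasp1, Csrnp1 and Xirp1), and the other 6 receptor genes overlap none. The promoter windows below, from 250 bases before to 50 after the RefSeq start (GRCm38.p6, as are their coordinates), are shown for the pair counted together in single cells, Cx3cr1 and Ccr2, and for Ccr1 and Cxcr2, the pair whose levels were highest in neutrophil-like cells. Capitals mark matches to GAGGAA, a core of sites for the myeloid factor PU.1, on either strand.
Cx3cr1, chr9:120068247-120068546, minus strand: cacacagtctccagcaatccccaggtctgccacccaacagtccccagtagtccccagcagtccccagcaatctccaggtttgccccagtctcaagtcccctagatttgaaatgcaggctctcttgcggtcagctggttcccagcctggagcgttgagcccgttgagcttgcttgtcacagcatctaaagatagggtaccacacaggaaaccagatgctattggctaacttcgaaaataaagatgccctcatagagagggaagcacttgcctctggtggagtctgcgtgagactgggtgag
Ccr2, chr9:124101933-124102232, plus strand: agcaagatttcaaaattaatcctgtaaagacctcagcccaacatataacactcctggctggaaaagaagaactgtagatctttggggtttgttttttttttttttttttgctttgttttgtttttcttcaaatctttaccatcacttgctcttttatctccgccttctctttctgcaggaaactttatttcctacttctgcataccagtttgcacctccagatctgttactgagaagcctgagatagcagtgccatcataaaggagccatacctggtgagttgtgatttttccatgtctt
Ccr1, chr9:123968643-123968942, minus strand: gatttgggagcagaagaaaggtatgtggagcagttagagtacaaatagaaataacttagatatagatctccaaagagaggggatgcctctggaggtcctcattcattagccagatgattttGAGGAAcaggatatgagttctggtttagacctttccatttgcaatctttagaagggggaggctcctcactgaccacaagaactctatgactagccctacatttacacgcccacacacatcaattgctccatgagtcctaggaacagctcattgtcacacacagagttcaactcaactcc
Cxcr2, chr1:74153744-74154043, plus strand: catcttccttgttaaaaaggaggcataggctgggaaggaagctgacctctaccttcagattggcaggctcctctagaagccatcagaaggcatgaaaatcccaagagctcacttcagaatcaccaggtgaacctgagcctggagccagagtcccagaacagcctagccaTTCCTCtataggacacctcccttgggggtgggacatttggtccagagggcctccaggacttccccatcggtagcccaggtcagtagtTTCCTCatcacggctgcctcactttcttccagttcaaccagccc

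RefSeq windows were found for 6 of the 7 receptors. GAGGAA was found once in the Ccr1 window, 129 bases before the start, and on the opposite strand (TTCCTC) in the Cxcr2 window at 81 bases before and 6 bases after the start. It was not found in the windows of Cx3cr1, Ccr2, Ccrl2 and Cxcr4. These letters occurred in 9289 of 32851 promoter windows of the same length (28.3%), so their presence is common. Neither TGANTCA, a core of AP-1 sites (7.81% of windows), nor TTGCNNAA, a core of C/EBP sites (10.8%), was found in any receptor window. A match is only a run of letters.

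Each cell class had its own set of receptors. Pooled over the 8 libraries, Cx3cr1 stood at 2663 CPM in microglia-like cells and was found in 97.3% of them. In border macrophage-like cells it stood at 981 CPM in Ctrl-1 and 685 CPM in Ctrl-3. It stood at 295 CPM in monocyte-like, 126 CPM in lymphoid-like, 82.9 CPM in dendritic cell-like and 69.0 CPM in neutrophil-like cells. The endothelial-like cells, which should not make it, held 210 CPM, and 19.1% of them had a Cx3cr1 UMI at a median of 3651 UMIs per cell, against 6968 in microglia-like cells. Levels of Cx3cr1 in dendritic cell-, neutrophil- and lymphoid-like cells were thus below this background.

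**Figure D1:**
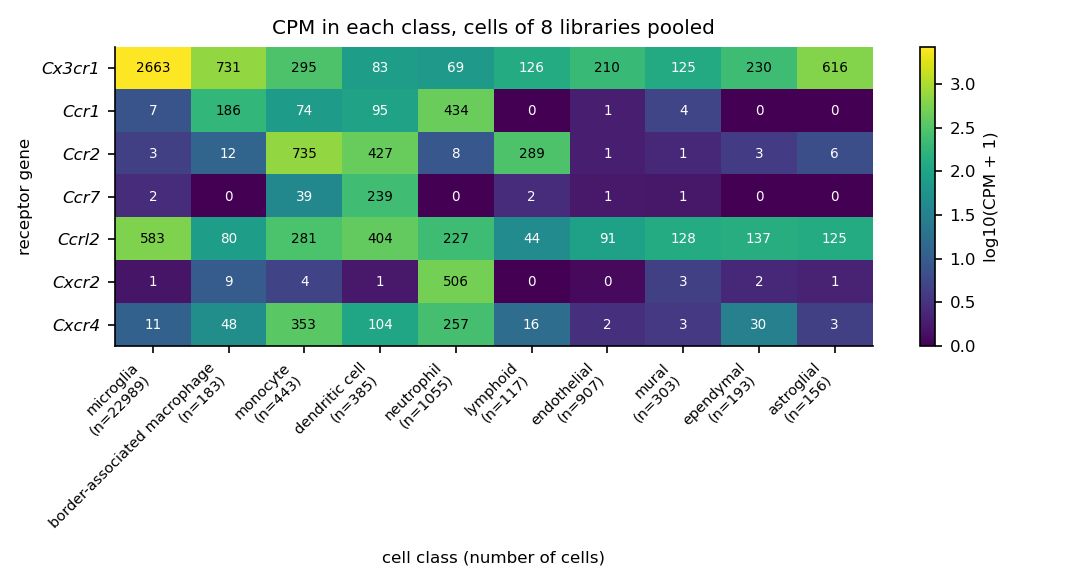
Pooled level of each receptor (rows) in each cell class (columns, number of cells below) of the 8 libraries, written in the cells as CPM and coloured by log10(CPM + 1). Cx3cr1 and Ccrl2 were highest in microglia-like cells, Ccr2 and Cxcr4 in monocyte-like cells, Ccr7 in dendritic cell-like cells, and Ccr1 and Cxcr2 in neutrophil-like cells, and the border macrophage column includes the 27 doubted cells of D0-2.

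Ccr2 was highest in monocyte-like cells at 735 CPM, followed by dendritic cell-like cells at 427 CPM and lymphoid-like cells at 289 CPM. Microglia-like cells held 3.41 CPM and endothelial-like cells 0.928 CPM. Across the 7 libraries with enough monocyte-like cells the mean was 723 ± 164 CPM (SD), and across 5 libraries of dendritic cell-like cells it was 431 ± 54.5 CPM, so the lower monocyte-like libraries, at 506 and 542 CPM, came close to the dendritic range of 359 to 477 CPM without reaching it. Monocyte-like cells held 37.9% of all Ccr2 UMIs and dendritic cell-like cells 25.5%, although they made up 1.55% and 1.34% of the cells.

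Ccr7, the receptor that takes dendritic cells along Ccl19 and Ccl21 to lymph nodes, stood at 239 CPM in dendritic cell-like cells, which held 65.4% of its UMIs. Of its 1010 UMIs there, 780 came from 29 cells led by Ccr7, Il12b and Ccl22, in which it reached 3165 CPM and 96.6% of the cells had a UMI. These cells held only 12.2 CPM of Ccr2. The other 356 dendritic cell-like cells, led by Cd209a, showed the reverse, with 57.9 CPM of Ccr7 and 453 CPM of Ccr2. In monocyte-like cells 143 Ccr7 UMIs came from only 6 of 443 cells, 94 of them from 1 cell.

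Ccrl2, an atypical receptor that binds the attractant chemerin and presents it without signalling itself, stood at 583 CPM in microglia-like cells and was found in 56.8% of them. It followed at 404 CPM in dendritic cell-like, 281 CPM in monocyte-like and 227 CPM in neutrophil-like cells, and endothelial-like cells held 91.2 CPM. Microglia-like cells made up 80.2% of the cells and held 93.1% of the Ccrl2 UMIs and 96.9% of the Cx3cr1 UMIs.

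Ccr1, a receptor for Ccl3 and Ccl5, stood at 434 CPM in neutrophil-like cells, 94.5 CPM in dendritic cell-like, 73.9 CPM in monocyte-like and 6.88 CPM in microglia-like cells. Border macrophage-like cells held 261 CPM in Ctrl-1 and 128 CPM in Ctrl-3, well above the 0.928 CPM of endothelial-like cells. Cxcr2, the receptor that calls neutrophils to Cxcl1 and Cxcl2, stood at 506 CPM in neutrophil-like cells, which held 89.7% of its UMIs, and below 10 CPM in every other named class. Cxcr4, the receptor for Cxcl12 that holds leukocytes in the marrow, stood at 353 CPM in monocyte-like, 257 CPM in neutrophil-like, 104 CPM in dendritic cell-like and 10.8 CPM in microglia-like cells, with 1.86 CPM in endothelial-like cells.

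Within a class the receptors also differed between clusters. The monocyte-like cells led by Fn1, Plac8 and Vcan (268 cells), genes of classical monocytes, held 977 CPM of Ccr2 and 226 CPM of Cx3cr1. Those led by Fabp4, Ace and Eno3 (145 cells), of which Ace marks non-classical monocytes, held the reverse, 61.3 CPM of Ccr2 and 631 CPM of Cx3cr1. Ccr1 stood at 83.3 CPM in the Fn1 cells and had no UMI in the Fabp4 cells, while Cxcr4 stood at 317 and 472 CPM. A small dividing cluster of 30 cells held 552 CPM of Ccr2 and 153 CPM of Ccr1. The share of the Fabp4 cluster among monocyte-like cells was 69.2% in Ctrl-2 and 62.1% in Ctrl-3, against 9.73% to 35.5% in the D0 and 19.3% to 20% in the D2 libraries, which touches every comparison of the class as a whole.

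The neutrophil-like cells fell into 3 clusters that differed in all 4 of their receptors. In the cluster led by Camp, Ngp and Orm1 (220 cells), genes of granules made in immature neutrophils, Ccr1 stood at 115 CPM and Cxcr2 at 78.7 CPM. In the cluster led by Retnlg, Mmp8 and Stfa1 (301 cells) they stood at 531 and 571 CPM, and in the cluster led by Ifitm1, H2-Q10 and Stfa2l1 (534 cells) at 874 and 1175 CPM. Cxcr4 went from 24.2 over 92.6 to 863 CPM in the same order, and Ccrl2 from 45.6 over 125 to 671 CPM. The median depth fell in that order too, from 11394 over 5113 to 2421.5 UMIs per cell, and its part in the result was not tested. The order of Ccr1, Cxcr2 and Cxcr4 between the first and the third cluster held in each of the 3 libraries with at least 20 cells of both: Cxcr2 was 59.7 and 1202 CPM in D0-2, 110 and 663 CPM in D2-1, and 126 and 1567 CPM in D2-2.

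**Figure D2:**
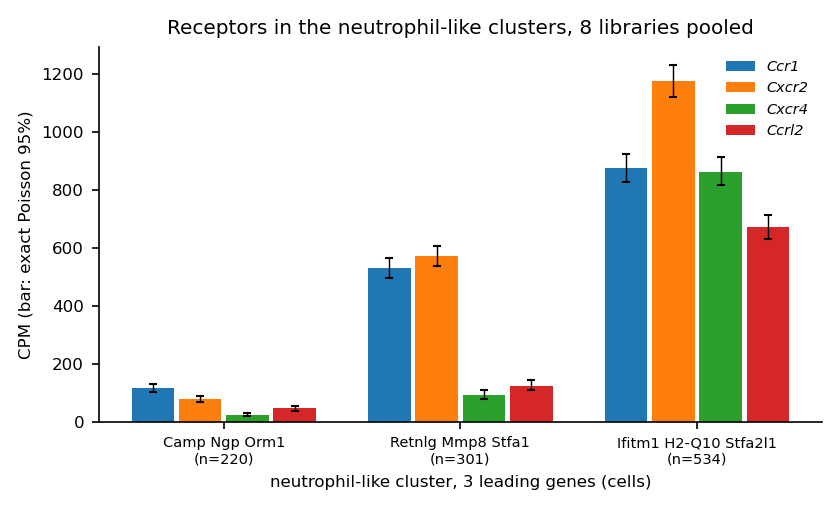
Levels of Ccr1, Cxcr2, Cxcr4 and Ccrl2 (CPM, bars with exact Poisson 95% intervals, which cover counting error only) in the 3 neutrophil-like clusters of the 8 libraries, named by their leading genes. All 4 receptors were lowest in the Camp cluster and highest in the Ifitm1 cluster, where Cxcr2 reached 1175 CPM.

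The lymphoid-like cells led by Gzma and Prf1 (74 cells), genes of cytotoxic cells, held 170 CPM of Ccr2, and those led by Gzmc and Xcl1 (43 cells) held 427 CPM, with 74.4% of the cells showing a Ccr2 UMI. The border macrophage-like cluster led by Pf4, Cbr2 and Folr2 (59 cells) held 895 CPM of Cx3cr1 and 237 CPM of Ccr1. In it 0 of 59 cells had a Ccr2 UMI. This allows up to 5.08% of cells with a UMI and sets no limit on cells that express it. An unnamed cluster led by Retnla, which did hold Ccr2, was named border macrophage-like under other settings.

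Over the 10 named classes, other genes followed the receptors closely (Pearson's r of log2(CPM + 10) over 10 classes, a description, since all classes come from the same libraries). Cx3cr1 was followed most closely by Daglb (r = 0.978), and Cryba4 was also close (0.959). Ccr2 went with Gpr18 (0.986), S100a4 (0.981) and Itgb7 (0.968), and Ccr7 with Btla (0.999), Kcne3 (0.998) and Tnip3 (0.995). Ccr1 went with F630028O10Rik (0.986), Mcemp1 (0.965) and Pilrb2 (0.960), and Cxcr2 with 9830107B12Rik (0.997), Acpp (0.991) and Asprv1 (0.989). Cxcr4 went with Lilrb4a (0.970), Vill (0.963) and Lgals3 (0.959). Ccrl2 had the loosest match, with Gm46224 (0.905), Slc15a3 (0.889) and Bcl2a1a (0.889).

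In microglia-like cells the first question was how the receptors stood after the drug and after 2 days without it. Cx3cr1 was lower at D0 and D2, Cxcr4 and Ccr1 were higher at D0 and D2, and Ccrl2, Ccr7 and Ccr2 moved past the threshold only at D0, with weaker support. UMIs were summed per library over the microglia-like cells and tested with edgeR's quasi-likelihood test over 12441 genes. At D0 6 of the 7 receptors were called at an adjusted p under 0.05, where 20.2% of all genes were called (2512 genes). This count was 3 to 5 with 1 library left out, 3 without Ctrl-2, Ctrl-3, D0-2 or D0-3, and 1 with D2-3 included. At D2 3 of the 7 were called, where 18.4% of all genes were called.

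Cx3cr1 stood at 3929, 3616 and 3491 CPM in the Ctrl libraries, at 2288, 1814 and 2175 CPM in the D0 libraries and at 2148 and 1535 CPM in the D2 libraries. Every D0 and D2 library lay below every Ctrl library. The means were 3679 ± 226 CPM in Ctrl (SD, n = 3), 2092 ± 248 CPM in D0 (n = 3) and 1841 ± 433 CPM in D2 (n = 2). On edgeR's scale, which also corrects for composition, the log2 fold change was -0.61 at D0 (SE 0.13, adjusted p = 0.00963) and -0.89 at D2 (SE 0.14, adjusted p = 0.00261). Between D2 and D0 it was -0.28 (edgeR adjusted p = 0.704).

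Cell Ranger, the program that counted the UMIs, was of version 3.0.2 in Ctrl-1 and in all D0 and D2 libraries used, and of version 3.1.0 in Ctrl-2 and Ctrl-3. Within version 3.0.2 Cx3cr1 stood at 3929 CPM in Ctrl-1, above all 5 D0 and D2 libraries. With the version as a term the D0 call of Cx3cr1 was lost (log2 fold change -0.63, edgeR adjusted p = 0.0508). With D2-3 included it was lost at D0 (-0.59, edgeR adjusted p = 0.506) and at D2 (-1.23, edgeR adjusted p = 0.0661), and over all alternatives the adjusted p at D0 ran from 0.000447 to 0.506. The fall stood within clusters. In each of the 7 microglia-like clusters with at least 20 cells in all 8 libraries, every D0 and D2 library lay below every Ctrl library. D0 means were 58.8% to 68.5% of the Ctrl means in these clusters, and D2 means 53.1% to 62.0%. Other genes of microglia also fell, P2ry12 by 1.18 and Tmem119 by 0.86 on the log2 scale at D0.

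**Figure D3:**
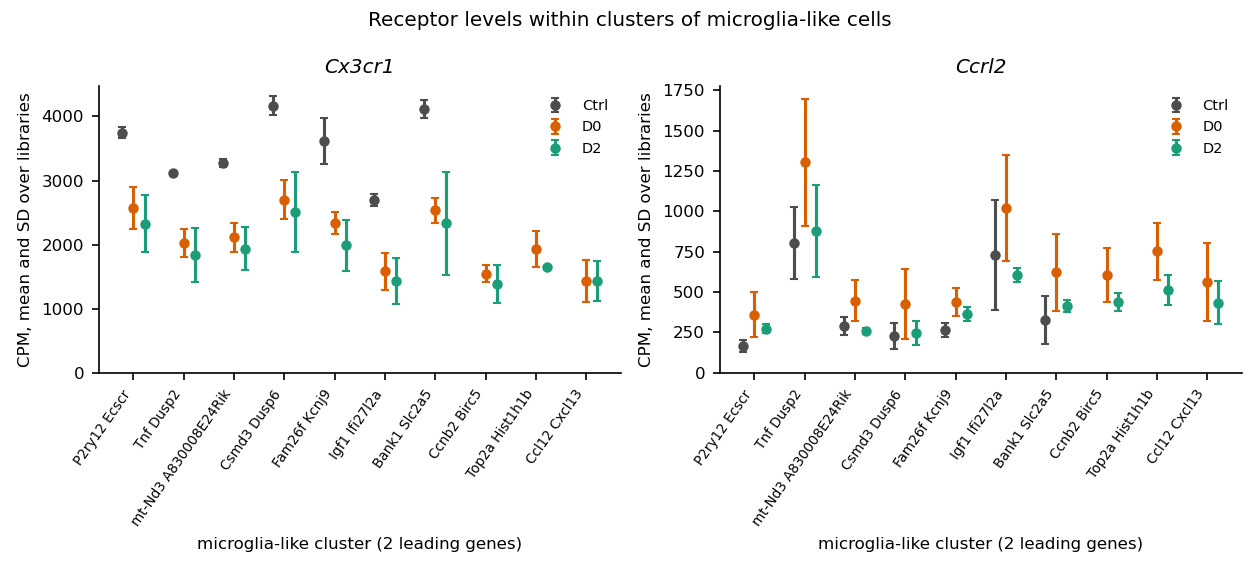
Cx3cr1 (left) and Ccrl2 (right) in the 10 microglia-like clusters, each named by its 2 leading genes, as mean and SD of CPM over the libraries of Ctrl, D0 and D2 with at least 20 cells (groups with 1 such library left out). The Ctrl means of Cx3cr1 lie above the D0 and D2 means in all 7 clusters that have them, while Ccrl2 was highest in the Tnf Dusp2 and Igf1 Ifi27l2a clusters in each group.

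Cxcr4 stood at 0.373, 1.31 and 1.08 CPM in the Ctrl libraries, at 4.49, 25.6 and 19.4 CPM in D0 and at 10.5 and 19.1 CPM in D2. All D0 and D2 libraries lay above all Ctrl libraries, with D0-1 the lowest of them and D0-2 the highest. The log2 fold change was 4.44 at D0 (SE 0.70, edgeR adjusted p = 0.00220) and 4.14 at D2 (SE 0.74, edgeR adjusted p = 0.00424). The call held under all 20 alternatives at D0 and at D2. Over Ctrl, D0 and D2 together, 4.35% of microglia-like cells had a Cxcr4 UMI. Endothelial-like cells held 0 to 4.73 CPM of Cxcr4 per library, so the 3 Ctrl values and the D0-1 value lay within that background and the other D0 and D2 values above it. This range rests on only 8 Cxcr4 UMIs in 7 of 907 endothelial-like cells. In 6 of the 7 clusters with enough cells in all libraries, every D0 library lay above every Ctrl library, and at D2 this was so in all 7. The exception was the Igf1 Ifi27l2a cluster, where D0-1 stood at 4.59 CPM and Ctrl-2 at 6.42 CPM, although D0-2 reached 69.7 CPM there. The Ctrl means of the 7 clusters, 0.330 to 3.62 CPM, lay within the endothelial-like range. So did the D0 and D2 means of the P2ry12 Ecscr cluster (2.87 and 3.36 CPM) and the D0 mean of the Csmd3 Dusp6 cluster (3.97 CPM). The other D0 and D2 means of these clusters lay above that range.

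Marker sums of other cell classes in microglia-like cells went in both directions beside Cxcr4. The 12 monocyte markers summed to 6.06 to 6.64 CPM in Ctrl, 18.9 to 33.3 CPM in D0 and 28.5 to 42.8 CPM in D2 microglia-like cells, with at most 2 of the 12 at 0 in a library. The 10 neutrophil markers summed to 211 to 289 CPM in Ctrl, 191 to 432 CPM in D0 and 280 to 483 CPM in D2, with at most 4 of the 10 at 0. D0-3, at 191 CPM, lay below every Ctrl library. The dendritic cell markers were lower, with 262 to 365 CPM in Ctrl, 136 to 204 CPM in D0 and 99.8 to 138 CPM in D2. The border macrophage, lymphoid and endothelial sums were also lower in every D0 and D2 library than in every Ctrl library. The part of these markers in the result was not tested.

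Ccr1 stood at 4.14, 4.97 and 3.71 CPM in Ctrl, 11.4, 8.62 and 7.14 CPM in D0, and 9.04 and 5.89 CPM in D2. Again all D0 and D2 libraries lay above all Ctrl libraries, and the Ctrl values lay above the 0 to 3.15 CPM of endothelial-like cells. The log2 fold change was 1.29 at D0 (SE 0.23, edgeR adjusted p = 0.00424) and 0.92 at D2 (SE 0.25, edgeR adjusted p = 0.0333). The D2 call was lost under 8 of 20 alternatives. Among them were the replicate block (edgeR adjusted p = 0.0609) and leaving out Ctrl-1 (0.0527), Ctrl-3 (0.106), D0-2 (0.0534) or D2-1 (0.241, with a log2 fold change of 0.64). With D2-3 included the D0 call was lost (edgeR adjusted p = 0.196).

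Ccrl2 stood at 190, 413 and 490 CPM in Ctrl, 439, 1043 and 822 CPM in D0, and 479 and 511 CPM in D2. D0-1 lay within the Ctrl range, and D0-2 and D0-3 above it. The log2 fold change was 1.28 at D0 (SE 0.39, edgeR adjusted p = 0.0460), a call lost under 11 of 20 alternatives, and 0.54 at D2 (SE 0.43, edgeR adjusted p = 0.424). The D0 call was lost on leaving out any library but D0-1, with log2 fold changes of 0.96 (without D0-2) to 1.58 (without Ctrl-3) and edgeR adjusted p from 0.0507 (without Ctrl-3) to 0.172 (without D0-2). Ccrl2 also differed between clusters: it stood at 1165 CPM in the cluster led by Tnf, Dusp2 and Egr1, genes of rapid activation, and at 938 CPM in the one led by Igf1 and Ifi27l2a, against 241 to 396 CPM in the other 5 clusters with enough cells in all libraries. Within these 7 clusters the D0 means were 140% to 217% of the Ctrl means, but every D0 library lay above every Ctrl library in only 2 of them. The share of the Tnf cluster among microglia-like cells lay between 5.27% and 14.4% for Ctrl libraries, between 11.4% and 29.8% for D0 and at 22.9% and 11.9% for D2-1 and D2-2, and its part in the result was not tested.

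Ccr7 stood at 0.0373, 0.261 and 0.279 CPM in Ctrl, 0.0516, 5.94 and 2.94 CPM in D0, and 0.653 and 0.646 CPM in D2. D0-2 and D0-3 were high and D0-1 lay within the Ctrl range, so the groups overlapped. The log2 fold change at D0 was 4.25 (SE 1.13, edgeR adjusted p = 0.0280), and the call was lost under 9 of 19 alternatives. Leaving out D0-2 gave 3.16 (edgeR adjusted p = 0.125), and leaving out Ctrl-1, Ctrl-2, Ctrl-3 or D0-3 gave 3.70, 4.51, 4.72 and 4.30 (edgeR adjusted p = 0.0711, 0.0731, 0.0737 and 0.0532). In all, 315 Ccr7 UMIs came from 114 microglia-like cells, and 1 cell held 16 of them.

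Ccr2 stood at 4.03, 5.12 and 5.19 CPM in Ctrl, 2.68, 2.36 and 2.08 CPM in D0, and 2.56 and 3.63 CPM in D2. All D0 and D2 libraries lay below all Ctrl libraries. The log2 fold change was -0.80 at D0 (SE 0.23, edgeR adjusted p = 0.0374), a call lost under 10 of 20 alternatives, and -0.53 at D2 (SE 0.26, edgeR adjusted p = 0.197). The D0 call was lost without Ctrl-2, Ctrl-3, D0-1, D0-2 or D0-3 (edgeR adjusted p = 0.119, 0.147, 0.0511, 0.112 and 0.0992, with log2 fold changes of -0.86 to -0.71). These levels lay near the 0 to 4.55 CPM of endothelial-like cells per library. That range rests on only 4 Ccr2 UMIs in 2 of 907 cells, 3 of them in 1 cell. In microglia-like cells there were 613 Ccr2 UMIs: 503 of 22989 cells had a Ccr2 UMI, 83.1% of them just 1. Cxcr2 stood at 0.160 to 0.807 CPM in all 8 libraries, and its log2 fold changes of 0.98 at D0 and 0.96 at D2 were not called (edgeR adjusted p = 0.146 and 0.228).

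**Figure D4:**
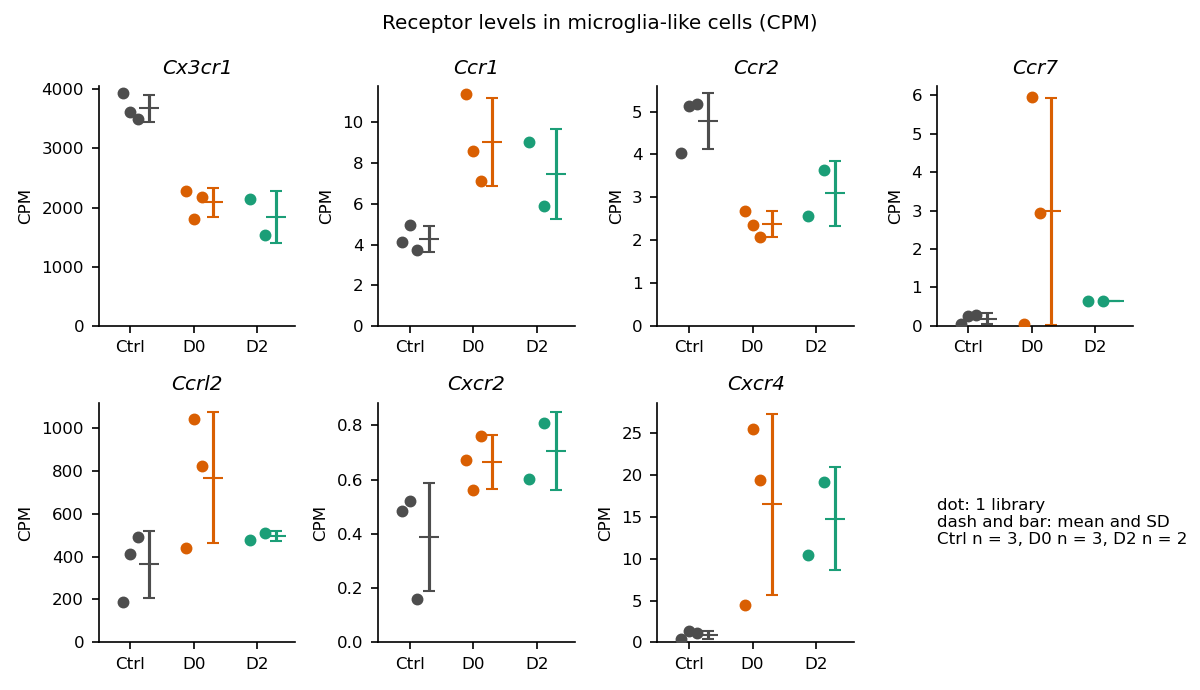
Level of each receptor in microglia-like cells, as CPM on a linear axis from 0, with 1 dot per library and dashes and bars for mean and SD (Ctrl n = 3, D0 n = 3, D2 n = 2). For Cx3cr1 and Ccr2 all D0 and D2 dots lie below all Ctrl dots, and for Cxcr4 and Ccr1 all lie above.

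Between D2 and D0 none of the 7 receptors and none of the 12441 genes was called by edgeR (0%), with 837 genes at an unadjusted p under 0.05 and 23 genes called by DESeq2.

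Other genes of the pathway were counted in the same fit. Of 16 other chemokine receptors, 5 passed the filter on low counts, and 2 fell at D0 and 1 at D2. None of those called reached 20 CPM. Of 21 ligands, 13 were tested: 2 rose and 1 fell at D0, and 3 rose and 1 fell at D2, beside 20.2% and 18.4% of all genes called. Mif, a cytokine that also binds Cxcr2 and Cxcr4, rose by 0.93 and 0.63 on the log2 scale at D0 and D2 (edgeR adjusted p = 0.00133 and 0.0164). Ccl6 rose by 0.51 and 0.54. Ccl12, a ligand of Ccr2, rose by 2.32 at D2 (edgeR adjusted p = 0.0197), with 1444 CPM in D2-1 against 254 CPM in D2-2 and 118 to 221 CPM in Ctrl.

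Of 19 genes that carry the signal, 18 were tested: 2 rose and 4 fell at D0, and 0 rose and 4 fell at D2, against the same shares of all genes. Pik3cg and Pik3r5, the catalytic and regulatory subunits of the PI3-kinase that G proteins switch on, fell by 0.78 and 0.41 on the log2 scale at D0 and by 0.99 and 0.86 at D2. Arrb1, an arrestin that shuts receptors off, fell by 0.45 and 0.62. Rac2, a GTPase that drives leukocyte migration, rose by 0.59 at D0. The median log2 fold change at D0 was 1.15 over the ligands tested and -0.06 over the signalling genes, beside -0.05 over all genes tested.

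In monocyte-like cells Ccr2 stood at 542 and 506 CPM in Ctrl-2 and Ctrl-3, 960, 877 and 705 CPM in D0, and 709 and 763 CPM in D2. All D0 and D2 libraries lay above both Ctrl libraries. The log2 fold change was 0.71 at D0 (SE 0.18, edgeR adjusted p = 0.101) and 0.47 at D2 (SE 0.19, edgeR adjusted p = 0.235). Of 6 receptors tested, none was called at D0, where 0.557% of 6289 genes were called, nor at D2, where 2.23% were. An unadjusted p under 0.05 in edgeR was found for 3 of the 6 at D0 and 3 at D2, beside 895 and 1139 of the 6289 genes. Within the Fn1 cluster only Ctrl-2, with 28 cells, had at least 20 cells among the Ctrl libraries, and its value lay above the rest. Ccr2 stood at 1110 CPM in Ctrl-2, 1021 and 818 CPM in D0-2 and D0-3, and 871 and 924 CPM in D2-1 and D2-2. The higher level of the whole class went with a smaller share of the Fabp4 cluster, and the part of that share was not tested. Ctrl-1, with only 8 monocyte-like cells, did not enter, so group and Cell Ranger version cannot be told apart here.

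In neutrophil-like cells none of the 5 receptors tested was called at D0, where 0% of 4078 genes were called (248 genes at an unadjusted p under 0.05 in edgeR and 9 genes called by DESeq2), nor at D2, where 0.0245% were. Ccrl2 stood at 771 and 326 CPM in Ctrl-2 and Ctrl-3, 143, 187 and 360 CPM in D0, and 113 and 105 CPM in D2, with a log2 fold change of -2.07 at D2 (SE 0.51, edgeR adjusted p = 0.252). Both D2 libraries lay below both Ctrl libraries. Cxcr4 stood at 1042 and 332 CPM in Ctrl, 354, 142 and 521 CPM in D0, and 101 and 165 CPM in D2, with a log2 fold change of -2.06 at D2 (SE 0.63, edgeR adjusted p = 0.281). The Ifitm1 cluster, where both receptors were highest, made up 98.7% and 51.9% of the neutrophil-like cells in Ctrl-2 and Ctrl-3, 36.9% to 76.6% in D0, and 30% and 39.6% in D2. P2ry12, a microglial gene, stood at 261 CPM in the neutrophil-like cells of Ctrl-2 and at 4.22 to 80.0 CPM in those of the other 6 libraries. The part of either in the result was not tested. Ctrl-1, with only 16 neutrophil-like cells, did not enter, so group and Cell Ranger version cannot be told apart here either.

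In dendritic cell-like cells only D2 and D0 could be compared, and 0 of 6 receptors was called by edgeR, as was none of 6331 genes (0%, with 337 genes at an unadjusted p under 0.05 and 0 genes called by DESeq2). Their Ccr2 stood at 477, 359 and 469 CPM in D0 and at 386 and 465 CPM in D2, ranges that overlapped. Border macrophage- and lymphoid-like cells were too few in most libraries for a test.

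The changes of Cxcr4 and Ccr2 differed between classes when the difference itself was tested. Ctrl-1 had too few monocyte- and neutrophil-like cells to enter, so group and Cell Ranger version cannot be told apart in these differences. In 1 edgeR fit of microglia- and monocyte-like sums with the library as a block, the D0 change of Cxcr4 was lower by 4.13 on the log2 scale in monocyte-like than in microglia-like cells (difference -4.13, SE 0.35, adjusted p = 4.02e-06), where 1.73% of 11939 genes were called. At D2 the difference was -5.05 (SE 0.38, edgeR adjusted p = 1.02e-06), where 1.83% were called. Ccr2 went the other way, with a difference of 1.71 at D0 (SE 0.23, edgeR adjusted p = 0.000337) and 1.17 at D2 (SE 0.26, edgeR adjusted p = 0.0235). These are differences of whole classes: the share of the Fabp4 cluster was 62.1% and 69.2% of monocyte-like cells in Ctrl and at most 35.5% in D0 and D2, and within the Fn1 cluster Ccr2 was not higher in D0 or D2 than in Ctrl-2. Cx3cr1 showed no call, with a difference of 0.05 at D0 (SE 0.28) and -0.15 at D2 (SE 0.31, edgeR adjusted p = 1 and 0.954).

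Against neutrophil-like cells, the Cxcr4 difference was -4.27 at D0 (SE 0.72, edgeR adjusted p = 0.0111; 0.207% of 12051 genes called) and -5.48 at D2 (SE 0.78, edgeR adjusted p = 0.00153; 0.506% called). The share of the Ifitm1 cluster, high in Cxcr4, moved with the groups here too, and its part in the result was not tested. Cxcr4 rose from near 0 in microglia-like cells and stood at 94.6 to 551 CPM in monocyte-like cells of every library, so its level there remained the higher one.

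Cells with a UMI of both Cx3cr1 and Ccr2 numbered 1119 of 28655 (3.91%, exact Clopper-Pearson 95% interval 3.68% to 4.14%, which covers counting error only). By library they were 3.66%, 5.12% and 3.78% in Ctrl, 2.58%, 4.40% and 5.38% in D0, and 2.77% and 4.71% in D2, ranges that overlapped. The mean of D0 differed from Ctrl by -0.0682 percentage points (exact two-sided permutation p = 1) and that of D2 by -0.447 points (exact permutation p = 0.8). The smallest p that 3 against 3 libraries allow is 0.1, and 3 against 2 allow 0.2.

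Of 443 monocyte-like cells 233 had both (52.6%). Of 385 dendritic cell-like cells 146 had both (37.9%), but their Cx3cr1, at 82.9 CPM, lay below the 210 CPM of endothelial-like cells, so these counts are not read as expression of both. In the Fn1 cluster the share was 74.6%, in the Cd209a cluster 40.7%, and in the Fabp4 cluster 13.8%. The background for Cx3cr1 was the 19.1% of endothelial-like cells with a UMI of it, at a median of 3651 UMIs per cell against 7936 in monocyte-like cells, and the Fn1 cluster, at 226 CPM of Cx3cr1, stood near their level. The background for Ccr2 was the 0.221% of endothelial-like cells with a UMI of it. None of the 907 endothelial-like cells had both, which allows up to 0.331% of cells with a UMI of each and follows from their lack of Ccr2. Of 22989 microglia-like cells 499 had both (2.17%), nearly all of the 503 with Ccr2, since Cx3cr1 was found in almost every cell.

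By library, 2.47%, 3.45% and 2.95% of microglia-like cells had both in Ctrl, 1.40%, 1.90% and 1.80% in D0, and 1.45% and 2.22% in D2, so that all D0 and D2 libraries lay below Ctrl. The difference was -1.26 points at D0 (exact permutation p = 0.1, the smallest possible, 0.4 after Benjamini-Hochberg adjustment over 12 tests) and -1.12 points at D2 (exact permutation p = 0.2, adjusted 0.4). With each cell thinned to 2000 UMIs, which left out 548 Ctrl, 534 D0 and 588 D2 cells with fewer, the means were 0.860%, 0.504% and 0.578%. The Ccr2-holding microglia-like cells had a median of 8258 UMIs against 6937.5 in the others. Their monocyte marker sum was the higher in 6 of 8 libraries, by most in D0-2 (273 against 28.5 CPM) and D2-1 (91.0 against 27.5 CPM), and the lower in D0-1 (6.10 against 19.9 CPM) and D2-2 (19.6 against 43.5 CPM). The part of either in the result was not tested.

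In monocyte-like cells 33.0% and 37.9% had both in Ctrl-2 and Ctrl-3, 61.3%, 62.8% and 66.2% in D0, and 50% and 52.6% in D2. All D0 and D2 libraries lay above Ctrl (difference 28.0 points at D0, exact permutation p = 0.2, and 15.9 points at D2, exact permutation p = 0.333, each the smallest possible; 0.4 and 0.5 after adjustment). Thinned to 2000 UMIs, which left out 4 Ctrl, 2 D0 and 4 D2 cells, the means were 20.5%, 20.6% and 24.0%, and the order was gone for D0. The share with a Ccr2 UMI, whether or not Cx3cr1 was also found, kept its order when thinned, 33.8% in Ctrl, 60.4% in D0 and 62.6% in D2. Group and Cell Ranger version cannot be told apart in these shares of monocyte-like cells.

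**Figure D5:**
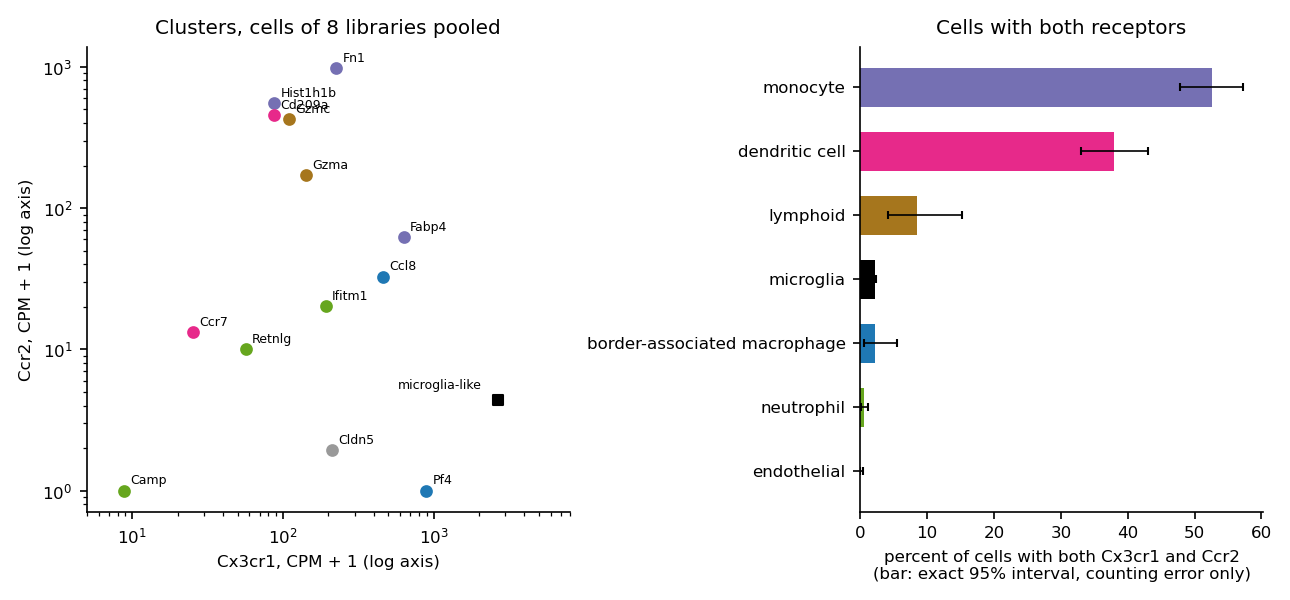
Left: pooled Ccr2 against Cx3cr1 (CPM + 1, both axes logarithmic) in each named cluster outside microglia, labelled by its first leading gene and coloured as the classes on the right, with all microglia-like cells as a black square. Right: percent of cells of each class with a UMI of both genes, bars with exact 95% intervals for counting error. The Fn1 cluster is high in Ccr2 and moderate in Cx3cr1, and monocyte-like cells lead with 52.6% of cells holding both.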

How the data were processed

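CD11b+ brain cells of 9 libraries were counted by 10x Genomics 3′ sequencing. The authors aligned reads to mm10 with Cell Ranger and deposited raw UMI counts per gene and barcode. Per the file headers the version was 3.0.2 in 6 libraries and 3.1.0 in 3.

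As in the study, D2-3 was left out, and a barcode was kept if it had 500 to 20000 UMIs, 200 genes or more and no more than 10% of UMIs from mitochondrial genes. Counts per cell were log-normalised and clustered (leidenalg 0.10.2, scanpy 1.11.5, Python 3.11.15; 3000 variable genes without the 7 receptors, 20 neighbours, resolution 0.6), with non-microglial cells clustered again, giving 36 clusters. A non-microglial cluster was named, as "-like", by fixed markers that reached 20 CPM and exceeded the rest of the cells. At least 3 markers of a type had to do so, by over 1 on the log2 scale (with 10 CPM added). A cluster was named microglia-like where no other type had 3 such markers, mitotic genes aside, and at least 5 microglia markers reached 100 CPM. Both the naming rule and the second clustering were chosen with the clusters in view, so names can differ from those of the study. Clusters with markers of several classes stayed unnamed, as did those with too few markers of any class. A cluster of low UMIs without a marker of its class among its 10 leading genes also stayed unnamed. No doublet caller was run. Cells of D2-3 did not enter the clustering and were given the cluster most common among their 30 nearest neighbours in the other libraries.

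UMIs were summed per library and class, for classes with at least 20 cells in a library, and tested with edgeR 4.0.16 (R 4.3.3; TMM, filterByExpr, quasi-likelihood test, Benjamini-Hochberg adjustment over all genes tested, called under 0.05) in 1 fit of Ctrl, D0 and D2. Differences between classes came from 1 fit over both classes with the library as a block, with edgeR's current quasi-likelihood estimate. DESeq2 1.42.0 was an alternative. Shares of cells were compared over libraries by exact two-sided permutation tests. The tests were checked on simulated data. Ctrl libraries are single mice and D0 and D2 libraries pools, so p-values measure the spread between these samples.

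The 7 receptors and the lists of other receptors, ligands and signalling genes were chosen with earlier results of these data known. By rule, the text names all 7 receptors, at most 4 called genes per list with the largest change and at least 20 CPM in a group, and the 3 genes most correlated with each receptor over the classes. Some results that fall under this rule are not reported here.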

Additional observations from a re-analysis of the deposited data

Results flagged for a closer look

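The change from Ctrl to D0 and D2 differed between cell classes for 2 receptors, by a test of the difference itself. The change of Cxcr4 in monocyte-like cells minus that in microglia-like cells was -4.13 at D0 and -5.05 at D2 on the log2 scale, and in neutrophil-like cells it was -4.27 at D0 and -5.48 at D2. The same difference for Ccr2 between monocyte- and microglia-like cells was 1.71 at D0 and 1.17 at D2. These are differences of whole classes. The Fabp4 cluster made up 69.2% and 62.1% of monocyte-like cells in Ctrl-2 and Ctrl-3 and at most 35.5% in D0 and D2. The Ifitm1 cluster made up 98.7% and 51.9% of neutrophil-like cells in Ctrl-2 and Ctrl-3, 36.9% to 76.6% in D0, and 30% and 39.6% in D2. The part of these shares was not tested. Ctrl-1 did not enter these differences, so group and Cell Ranger version cannot be told apart in them. In microglia-like cells, Cxcr4 lay within the range of endothelial-like cells in the 3 Ctrl libraries and in D0-1, and Ccr2 lay near the range of those cells. Both ranges rest on few UMIs, 8 of Cxcr4 and 4 of Ccr2 in 907 endothelial-like cells.

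Library D2-3, which entered comparisons only as an alternative, held a signal above the control libraries: 9.46% of its 1808 kept cells had UMIs of both Cx3cr1 and Ccr2, against 3.66% to 5.12% in the Ctrl libraries, and 14.5% had Ccr2, against 3.85% to 5.51%. These are shares of kept cells, and 37.3% of the barcodes of D2-3 lay over the upper limit on UMIs, against 3.76% to 14.3% in Ctrl. Without that limit D2-3 held 1726 microglia-like cells, against 777 with it. The part of the limit in these shares was not tested. Cells of D2-3 took the cluster most common among their 30 nearest neighbours in the other libraries. Its 490 monocyte-like cells, of which 73.1% were placed in the Fabp4 cluster, held 288 CPM of Ccr2. Its microglia-like cells held 482 CPM of Cx3cr1, and 85.2% of them were placed in a dividing cluster led by Ccnb2 and Birc5. Their microglia markers summed to only 8474 CPM, against 15409 to 29788 CPM in the other libraries, so these placements are uncertain.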

How the results depend on the processing

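Cxcr4 in microglia-like cells was called at D0 and D2 under all 20 alternatives. Cx3cr1 was called under 18 at D0 and 19 at D2, and Ccr1 under 19 and 12. The number of receptors called in microglia-like cells at D0, 6, was 3 to 5 with 1 library left out, 1 with D2-3 included and 3 with a term for the Cell Ranger version. Leaving out Ctrl-2, Ctrl-3, D0-2 or D0-3 gave 3. In the other classes no receptor was called, against 1 with DESeq2, 2 at Leiden resolution 1.0, 9 with no filter on low counts and 0 to 2 with 1 library left out.

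Genes called in microglia-like cells at D0 (2512) and D2 (2286) numbered 480 and 1300 with D2-3 included, 1404 and 1157 with the version term, 1312 and 1459 without mitotic clusters, and 1331 and 1383 with cells thinned to 2000 UMIs. They were 1239 to 2607 at D0 and 1061 to 3036 at D2 with 1 library left out. The naming rule had left a low-UMI cluster of 1227 cells (median 1968 UMIs) unnamed, though 9 microglia markers reached 100 CPM in it. No microglia-like cluster with low UMI counts was left, so there was no such cluster to leave out beside the mitotic ones. In monocyte-like cells, 35 genes called at D0 and 140 at D2 became 373 and 555 with no filter, 12 and 20 at resolution 1.0, 85 and 58 with the replicate block, and 0 and 0 with D2-3, and ran from 2 to 221 and 0 to 336 with 1 library left out. In neutrophil-like cells 0 and 1 became 98 and 168 with no filter, and ran from 0 to 62 and 0 to 157. For differences between classes, edgeR's older quasi-likelihood estimate, whose prior degrees of freedom came out infinite, was replaced after seeing the data, and as an alternative it raised genes called in the D0 difference between monocyte- and microglia-like cells from 207 to 350.

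Of 7 pairs of same-numbered libraries, 5 had a correlation of their deviations over 0.1 (range -0.127 to 0.405). Pairing was to be taken only if every pair passed, so the numbers were not taken as pairs. With the replicate block 2954 genes were called at D0, the D2 call of Ccr1 was lost, and Cxcr4 in monocyte-like cells at D0 turned from -0.23 to 0.13.

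Results that turned direction were all uncalled. Cxcr2 in microglia-like cells was -0.0743 at D0 and -0.23 at D2 with no upper limit on UMIs. Cxcr4 in monocyte-like cells at D0 ran from -0.64 to 0.19 with 1 library left out. Ccrl2 there at D2 was -0.23 at resolution 1.0 and -0.18 to 0.29 with 1 library left out. In neutrophil-like cells, with 1 library left out, Cxcr4 at D0 ran from -1.27 to 0.0429, Cx3cr1 at D2 from -2.55 to 0.41 and Cxcr2 at D2 from -0.36 to 0.52. Cxcr2 there at D2 was 0.0668 with no filter, 0.0762 with D2-3 and 0.10 at resolution 1.0.

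The difference in cells with both receptors among all kept cells ran at D0 from -0.700 to 0.702 points with 1 library left out, and was 0.0865 with at least 2 UMIs of each gene and 0.317 without cells over 10000 UMIs. At D2 it ran from -0.711 to 0.0198, and was 1.46 with D2-3 and 0.0232 without cells over 10000 UMIs. In monocyte-like cells it was -0.471 at D0 thinned to 1000 UMIs and -2.69 at D2 with at least 2 UMIs. The cause was not tested for any of these. Where an arm kept 1 library, it was assumed to vary like the other groups. Small classes and 2 to 3 libraries a group limit all but the largest differences.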

Other observations

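Some cells that carried the receptors lay in clusters that stayed unnamed. A cluster of 184 cells led by Retnla, Mmp12, Lyz1 and Axl held 703 CPM of Ccr2, 584 CPM of Cx3cr1 and 635 CPM of Ccrl2, and 55.4% of its cells had both Cx3cr1 and Ccr2. In Ctrl-1 it held 462 CPM of Ccr2 and 1059 CPM of Cx3cr1, and in the 3 D0 libraries 767 to 1026 CPM of Ccr2 and 219 to 335 CPM of Cx3cr1. It stayed unnamed because 5 border macrophage and 5 monocyte markers were raised in it. A cluster led by Retnla and Mmp12 was named border macrophage-like at resolution 1.0 (171 cells). So was one with the receptors kept among the variable genes (191 cells). Whether border macrophage-like cells hold Ccr2 therefore depends on the naming. A cluster of 20 cells led by Gata2 and Mcpt8, genes of basophils and mast cells, held 578 CPM of Cxcr4, 295 CPM of Ccr1 and 284 CPM of Ccr2. These clusters were picked after their values had been seen.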
